A study of Danio rerio with 20 samples.

Results

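Gonads of zebrafish from larvae treated with lipopolysaccharide (LPS) were compared with gonads of control fish within the 6H set of the study, CpG by CpG. LPS, a glycolipid of the bacterial surface that provokes inflammation, came from Pseudomonas aeruginosa. CpGs covered by 10 or more reads in 4 or 5 samples of each group entered, which kept 137 of the 384 positions with reads in these 10 samples and of the 456 with reads in all 20 samples of the series. The 137 CpGs lay in 8 amplicons, short stretches copied by PCR before sequencing, and 133 of them had at least 10 reads in all 10 samples. The controls were 5 samples and the LPS samples another 5, all from laboratory-reared AB strain fish that were 90 days old. The labels do not say what 6H or the sample numbers stand for, the dose of LPS, the sex, or whether separate fish or families were sampled. Every p-value therefore weighs a difference against the spread between the samples tested, and that spread may be technical. The title of the study places the comparison in sex differentiation under inflammation.

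In vertebrates, methyl groups sit mostly on the cytosine of a CpG, a cytosine followed by a guanine. Stretches dense in CpGs near gene starts are often unmethylated, while most other CpGs of the genome are methylated, and a tissue that mixes cell types can show intermediate levels. After bisulfite treatment an unmethylated cytosine is read as thymine and a methylated one still as cytosine, and the percent of cytosine reads is the methylation level. Such reads cannot tell an unmethylated cytosine from a thymine already present in the DNA. No DNA without bisulfite treatment and no conversion standard was analysed here. Amplicons are named by chromosome and position on build GRCz11, counted from 1. No annotation of that build was used, so they are not assigned to genes and no sequence is shown.

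The control libraries held 792162 to 2046055 methylation calls (median 1540785) and the LPS libraries 419055 to 1332914 (median 905801). The kept CpGs took between 99.93% and 99.98% of the calls of a sample. Intervals on reads cover counting error only, since PCR copies are not independent molecules.

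The 6H groups differed at 1 CpG, position 44956872 of chromosome 10, where controls read at intermediate levels and LPS samples close to 0%. With edgeR's quasi-likelihood test and adjustment over all kept CpGs, this was 1 of 137 called (0.73%), lower in LPS samples. Reads at this position cannot tell an unmethylated cytosine from a thymine in the DNA. Which of them these samples held there was not tested. Without adjustment, 11 of the 137 CpGs had p under 0.05 with edgeR, 8 of them higher and 3 lower in LPS samples. Limma had 13 such CpGs of the 137 and an exact permutation test per CpG had 6. Where no CpG differs, a share of about 0.05 would still have p under 0.05. CpGs of an amplicon share reads, and these counts were not tested against that share. The 5 LPS and 5 control values did not overlap at 2 of the 137 CpGs (1.46%), the chromosome 10 position and position 67993018 of chromosome 5. The mean of the LPS samples was the higher at 92 CpGs, the lower at 42 and equal at 3, with a median difference of 0.11 percentage points.

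The 8 amplicons fell into 3 ranges of methylation. Those on chromosomes 18, 19 and 10 were mostly methylated, the first of the pair on chromosome 5 and the one on chromosome 24 were at low intermediate levels, and those on chromosomes 3 and 23 and the second on chromosome 5 were close to 0%. With the exact permutation test of amplicon means, adjusted over the amplicons, 0 of 8 were called (0.0%), and 1 had an unadjusted p under 0.05. Groups of 5 and 5 allow no p below 0.00794, and 2 amplicons at that value would have been needed for a call.

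**Figure D1:**
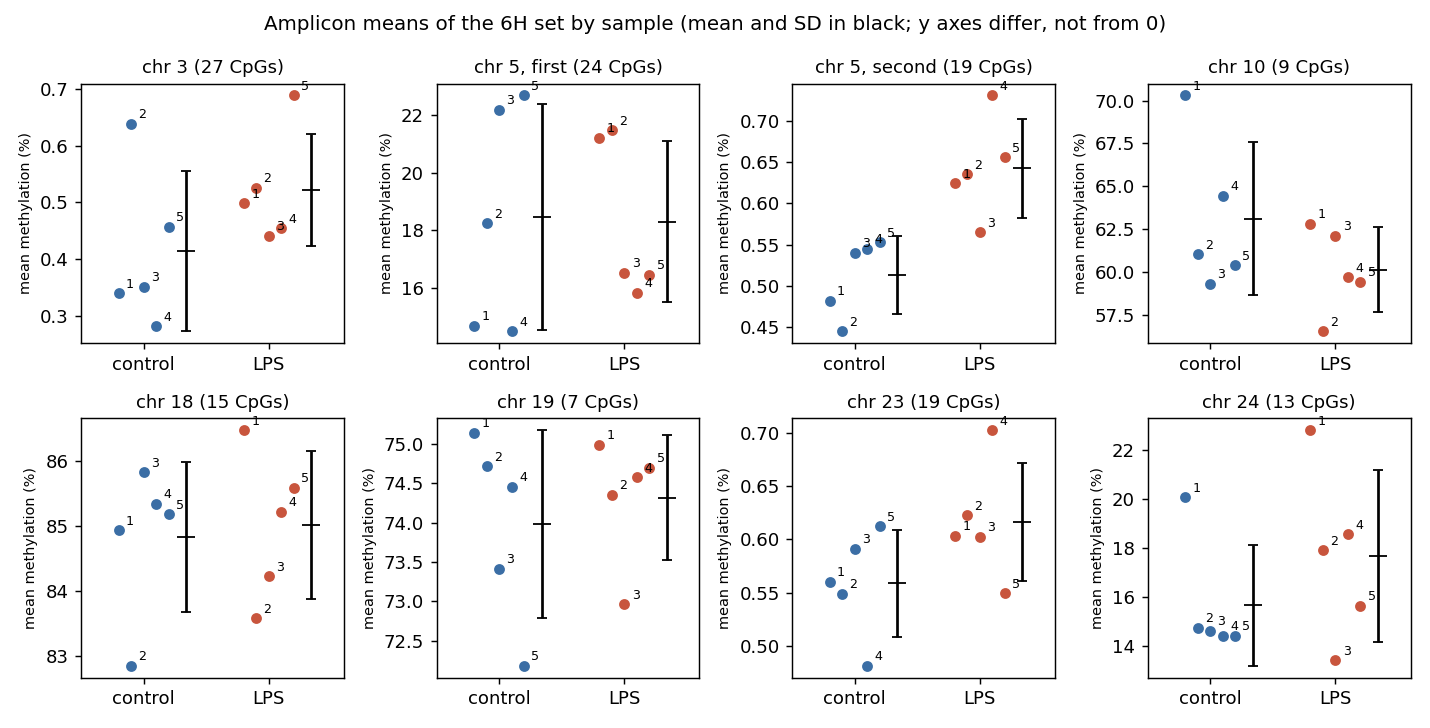
Mean methylation (percent, y axis; scales differ between panels and do not all start at 0) of each of the 8 amplicons in each 6H sample, controls and LPS samples on the x axis; points are samples, black marks are the mean and SD of 5. The groups overlap in 7 amplicons, and on the second chromosome 5 amplicon the LPS samples lie at 0.565% and above, the controls at 0.553% and below.

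The amplicon on chromosome 10 (44956550 to 44956948, 399 bp) held 10 kept CpGs. Its first 7 CpGs lay close together at intermediate levels, and the eighth followed after 178 bp at over 90% methylation. The ninth was the called CpG 47 bp further, and the tenth had few reads, none of them methylated. At the called CpG, position 44956872, the 5 controls read 47.7%, 42.8%, 46.6%, 44.1% and 45.5%. The 5 LPS samples read 0.336%, 0.290%, 0.337%, 0.186% and 0.228%. All LPS samples lay far below all controls, and neither group spread over more than a few percentage points.

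These values rest on 6630 to 27316 reads in the controls and 2156 to 11309 in the LPS samples. The least covered LPS sample, replicate 4, had 4 methylated reads of 2156, and control replicate 4 had 2927 of 6630. The control mean was 45.3% ± 1.95 and the LPS mean 0.275% ± 0.0671 (SD, n = 5 each). LPS minus control was -45.1 percentage points, and its exact permutation interval ran from -46.9 to -43.1. The difference in log2 odds of methylation was -8.21 (edgeR adjusted p = 1.36e-10). Leaving out each sample in turn moved it between -8.30 and -8.12. An exact permutation test per CpG, in which 22 CpGs at the smallest p would be needed for any call, did not call it (adjusted p = 0.544).

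The nearest kept CpG, position 44956825, did not share this difference. It read 96.7%, 92.9%, 91.8%, 95.0% and 93.5% in the controls and 96.0%, 94.3%, 94.3%, 93.9% and 91.7% in the LPS samples. The group means differed by 0.0783 percentage points. Divided by this neighbour, the called CpG was at 0.461 to 0.508 in the 5 controls and at 0.00198 to 0.00357 in the 5 LPS samples. On the far side, position 44956948 had 0 methylated reads in any sample, at 4 to 77 reads per sample against 2156 to 27316 at the called CpG. Position 44956952, which was not kept, had 0 methylated of 44 control and 31 LPS reads. Whether such sparse reads give the level of a CpG was not tested.

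The 7 intermediate CpGs all had higher means in the LPS samples, by 2.18 to 3.39 percentage points, and the ranges of the groups overlapped at each. The first, position 44956550, read 62.9%, 56.2%, 53.8%, 60.5% and 55.7% in controls and 64.5%, 57.1%, 64.4%, 60.2% and 60.0% in LPS samples. Position 44956589 was the lowest of the 7, with group means of 51.4% and 53.6%, and position 44956641 the highest, with 67.5% and 69.9%. None of the 7 passed the edgeR test.

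The same samples were often at the extremes along the amplicon, while the order of the others changed. Control replicate 1 was the highest control at 9 of the 9 CpGs covered in all samples and control replicate 3 the lowest at 7, while LPS replicate 1 was the highest LPS sample at 8 and LPS replicate 2 the lowest at 7. The widest spread was at position 44956574, where controls read 75.2%, 61.8%, 56.7%, 63.8% and 59.7%, with an SD of 7.10, and LPS samples 70.0%, 61.3%, 69.2%, 65.4% and 64.3%, with an SD of 3.59. The control SD was the larger at each of the 9 CpGs.

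The amplicon mean over these 9 CpGs was 63.1% ± 4.47 in controls and 60.1% ± 2.49 in LPS samples (SD, n = 5 each). LPS minus control was -2.98 percentage points (interval -8.20 to 1.80, exact permutation p = 0.262, adjusted p = 0.524). By sample it was 70.3%, 61.0%, 59.3%, 64.4% and 60.4% in controls and 62.8%, 56.5%, 62.1%, 59.7% and 59.4% in LPS samples. Control replicate 1 stood above the rest, and without it the control SD was 2.22 and the difference -1.17. Without the called CpG the difference was 2.28, in the other direction.

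**Figure D2:**
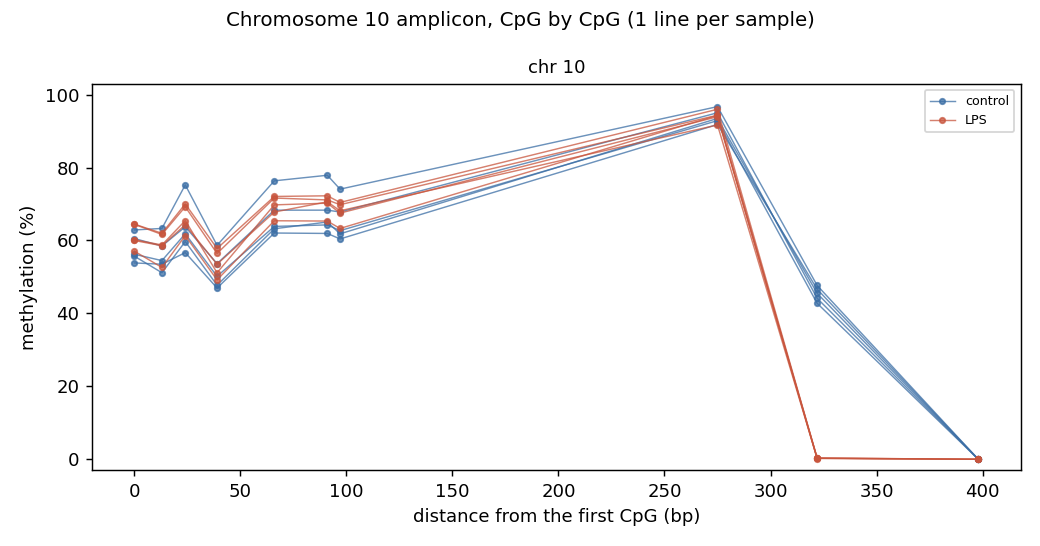
Methylation (percent, y axis) at the CpGs of the chromosome 10 amplicon against distance from its first CpG (bp, x axis), 1 line per 6H sample. The groups overlap except at the called CpG, where the 5 controls are at 42.8% to 47.7% and the 5 LPS samples at 0.186% to 0.337%.

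The amplicon on chromosome 24 (21640622 to 21640889, 268 bp) held 13 CpGs, all covered in all samples. Its first pair of CpGs, 2 bp apart, spread widely between samples, and the 11 others far less. At position 21640622 the controls read 48.3%, 4.51%, 4.23%, 5.80% and 4.22%. The LPS samples read 45.9%, 12.2%, 4.90%, 47.3% and 24.5%. Control replicate 1 stood far above the other controls, the LPS samples ranged from 4.90% to 47.3%, and the groups overlapped.

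The group means there were 13.4% ± 19.5 and 26.9% ± 19.3 (SD, n = 5 each). LPS minus control, 13.5 percentage points, had an interval from -17.7 to 42.2, and the log2 odds difference of 1.95 did not pass (edgeR adjusted p = 0.815). At position 21640624 the controls read 48.2%, 10.5%, 7.46%, 8.26% and 9.90% and the LPS samples 48.0%, 27.3%, 7.25%, 14.1% and 10.4%. Control replicate 1 and LPS replicate 1 were near 48% at both CpGs. The other samples did not keep their order between them: LPS replicate 4 was at 47.3% at the first and 14.1% at the second, and LPS replicate 2 at 12.2% and 27.3%.

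Behind this pair the profile was alike in all samples. Positions 21640648 and 21640666 were the most methylated, with group means of 43.0% and 45.0% at the first and 41.3% and 39.6% at the second. Position 21640651, between them, was at 24.8% ± 0.881 in controls and 28.4% ± 3.97 in LPS samples (SD, n = 5 each), a difference of 3.51 percentage points and the largest of the 11. Positions 21640685, 21640811 and 21640828 had group means between 10.8% and 14.4%. The remaining 5 CpGs were under 8%. Among them, position 21640786 had group means of 3.67% and 4.72%, and the last, position 21640889, 4.07% and 4.26%.

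The amplicon mean by sample was 20.1%, 14.7%, 14.6%, 14.4% and 14.4% in controls and 22.8%, 17.9%, 13.4%, 18.5% and 15.6% in LPS samples. The 4 controls other than replicate 1 lay within a narrow band, with an SD of 0.164, and the LPS samples were spread around and above it. The groups, at 15.6% ± 2.48 and 17.7% ± 3.53 (SD, n = 5 each), differed by 2.01 percentage points (interval -2.73 to 6.17, exact permutation p = 0.349, adjusted p = 0.559). Omitting LPS replicate 1 gave 0.724, and omitting control replicate 1 gave 3.12. Over the 11 CpGs without the pair it was 0.734, with SDs of 0.485 in controls and 1.54 in LPS samples.

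The amplicon on chromosome 19 (27019198 to 27019584, 387 bp) held 7 CpGs, 6 of them mostly methylated and position 27019282 nearly unmethylated. Position 27019279, only 3 bp before it, read 85.8%, 84.5%, 81.0%, 85.8% and 72.5% in controls and 85.3%, 82.0%, 83.0%, 84.4% and 85.0% in LPS samples. At position 27019282 the controls read 0.196%, 0.113%, 0.388%, 0.302% and 18.5%, and the LPS samples 0.507%, 0.0796%, 0.568%, 0.189% and 0.265%. Control replicate 5 stood apart from the 9 other samples, with 50 methylated of 270 reads and a Wilson 95% interval from 14.3% to 23.6%.

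Control replicate 5 was also the shallowest library of this amplicon, with a median of 266 reads per CpG against 3565 to 9773 in the other controls. It was the lowest control at 6 of the 7 CpGs and the highest at the seventh, position 27019282. The part of this library's depth in these values was not tested. In the 3H set, position 27019282 was at 0.774% ± 0.255 in controls and 3.82% ± 7.91 in LPS samples (SD, n = 5 each). A wide spread at this CpG was therefore not confined to the 6H controls. At position 27019461, the widest in spread of the methylated CpGs, controls read 79.0%, 73.2%, 73.8%, 76.2% and 63.5% and LPS samples 75.6%, 74.6%, 71.6%, 76.4% and 77.0%.

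Position 27019584, the last, was the most methylated, at 95.4% ± 0.599 in controls and 95.5% ± 0.715 in LPS samples (SD, n = 5 each). Positions 27019544 and 27019548 had group means between 89.0% and 89.4%. The smallest edgeR p was at position 27019198, which read 85.3%, 87.0%, 86.3%, 84.4% and 83.6% in controls and 86.6%, 87.2%, 85.8%, 87.6% and 86.5% in LPS samples. The groups overlapped there, and the difference of 1.42 percentage points (interval -0.440 to 3.04) was a log2 odds difference of 0.16 (edgeR adjusted p = 0.952).

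The chromosome 19 amplicon mean was 74.0% ± 1.19 in controls and 74.3% ± 0.791 in LPS samples (SD, n = 5 each). LPS minus control, 0.336 percentage points (interval -1.14 to 1.99, exact permutation p = 0.651, adjusted p = 0.868) became -0.115 without control replicate 5.

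The amplicon on chromosome 18 (39636122 to 39636564, 443 bp) was the most methylated of the 8. Of its 18 CpGs, 15 were covered in all samples, with group means from 74.3% to 94.0%. Positions 39636145 to 39636223 were at 76.9% to 84.0%, position 39636267 at 87.0% and 87.5%, and position 39636305 was the lowest, at 74.3% and 75.5%. From position 39636372 on, all 7 CpGs covered in all samples were above 87%, and position 39636518 was the highest, at 94.0% ± 1.65 and 93.2% ± 1.22 (SD, n = 5 each). The first pair of CpGs and the last one were at or near 0%, with 8 to 81 reads per sample, and control replicate 1 fell under 10 reads there. The CpGs covered in all samples had 2464 to 21476. Whether the sparse reads give the level of those 3 CpGs was not tested.

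No CpG of chromosome 18 passed. The smallest p was at position 39636523, which read 89.6%, 87.2%, 90.2%, 87.3% and 88.7% in controls and 87.7%, 85.9%, 86.3%, 88.8% and 87.2% in LPS samples. The groups overlapped, with a difference of -1.41 percentage points (interval -3.33 to 0.440), a log2 odds difference of -0.19 and edgeR adjusted p = 0.952. The last 5 CpGs covered in all samples, from position 39636409 on, had lower means in the LPS samples, by 0.107 to 1.41 percentage points, and 9 of the 10 before them did not.

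The largest within-group SD on chromosome 18 was 2.39, in controls at position 39636223, against 1.07 in LPS samples there. Control replicate 2 was the lowest control at 12 of the 15 CpGs. LPS replicate 1 was the highest LPS sample at 11 and LPS replicate 2 the lowest at 10. By sample the amplicon mean was 84.9%, 82.9%, 85.8%, 85.3% and 85.2% in controls and 86.5%, 83.6%, 84.2%, 85.2% and 85.6% in LPS samples, with a difference of 0.190 percentage points (interval -1.60 to 1.95, exact permutation p = 0.810, adjusted p = 0.925).

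The first amplicon on chromosome 5 (44944720 to 44945152, 433 bp) held 24 CpGs and the fewest reads. The median per CpG was from 51 to 2210 reads between samples, and was under 100 in LPS replicates 4 and 5 and control replicate 3. The median Wilson half-width of a CpG value was from 1.5 to 10.6 percentage points between samples, widest in control replicate 3. Over the 10 samples, 5 CpGs were under 10%, 18 between 10% and 40%, and position 44945108 above that, at 49.2% ± 7.51 and 49.6% ± 7.90 (SD, n = 5 each).

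The lowest CpG of this amplicon was position 44944858, at 5.30% and 4.27%. Positions 44944888, 44944967, 44944972 and 44944990 were the 4 others under 10%. In the front, position 44944770 rose out of its neighbours at 37.6% and 38.2%, and near the end position 44945105 was at 31.6% and 31.2%, next to the peak 3 bp further. Both groups followed this profile, and 10 CpGs had the higher mean in LPS samples, 14 the lower.

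The smallest p was at position 44945013, which read 13.4%, 12.6%, 16.7%, 12.5% and 20.2% in controls and 11.6%, 14.8%, 8.28%, 9.80% and 8.79% in LPS samples. LPS replicate 2 lay among the controls and the 4 others below them. The difference was -4.41 percentage points (interval -9.12 to 0.215), a log2 odds difference of -0.56 that did not pass (edgeR adjusted p = 0.590). The largest SD was 8.31, in controls at position 44945041, against 5.42 in LPS samples.

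The amplicon mean by sample was 14.7%, 18.3%, 22.2%, 14.5% and 22.7% in controls and 21.2%, 21.5%, 16.5%, 15.8% and 16.5% in LPS samples. Both groups covered much the same range, at 18.5% ± 3.91 and 18.3% ± 2.78 (SD, n = 5 each). The difference was -0.158 percentage points with an interval from -6.13 to 4.95 (exact permutation p = 0.937, adjusted p = 0.937), so a difference of several points in either direction was not excluded. Control replicate 5 was the highest control at 15 of the 24 CpGs and LPS replicate 1 the highest LPS sample at 13.

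**Figure D3:**
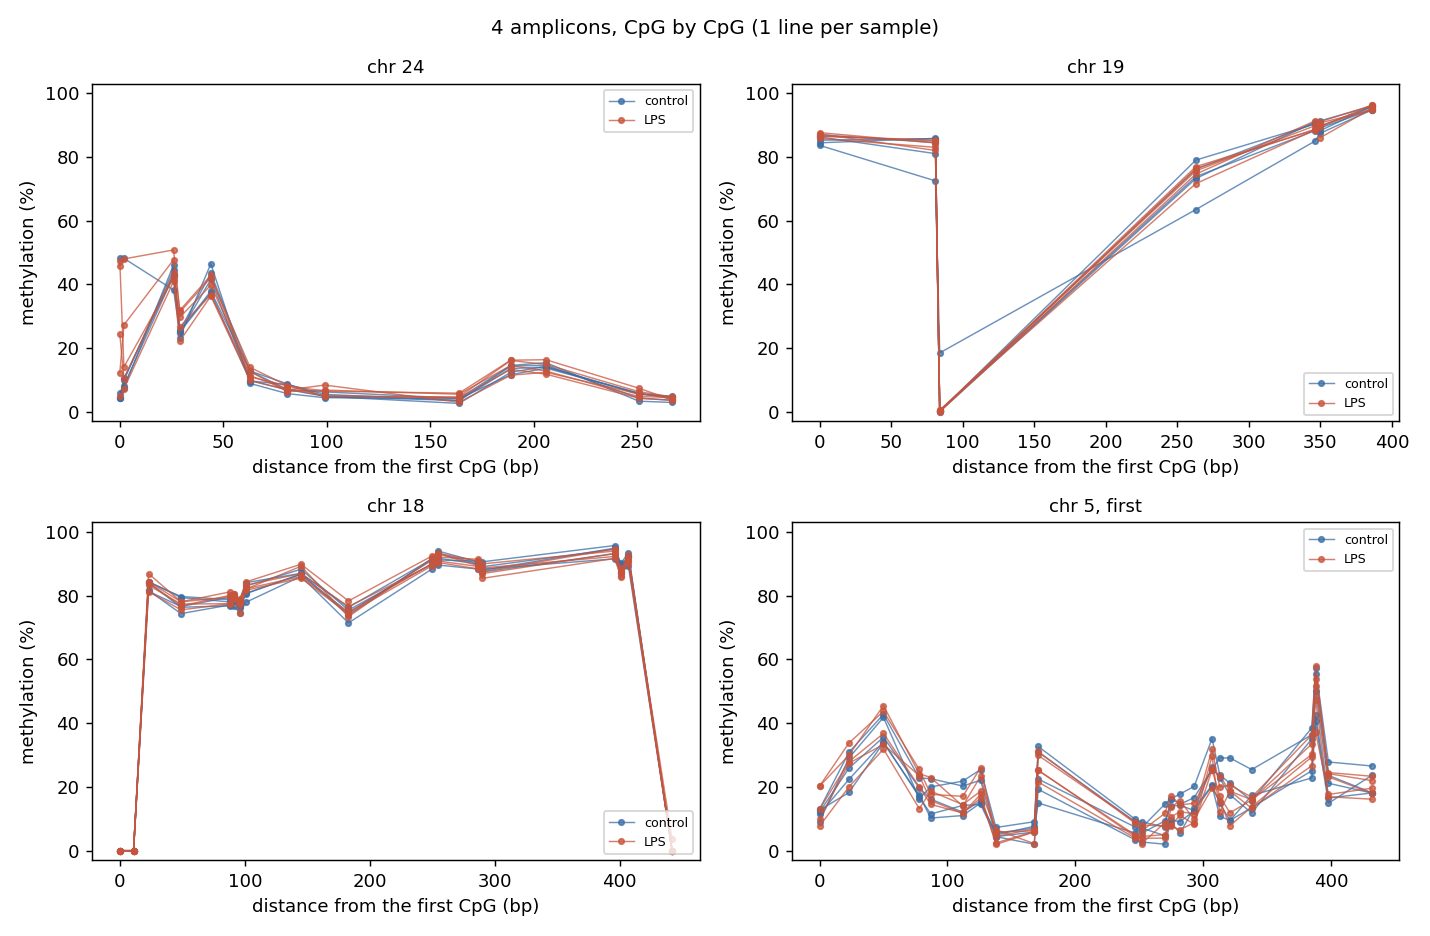
Methylation (percent, y axis) against distance from the first CpG of the amplicon (bp, x axis) for the amplicons on chromosomes 24, 19 and 18 and the first on chromosome 5, 1 line per 6H sample, controls and LPS samples in different colours. Samples spread from 4.22% to 48.3% at the first CpG of chromosome 24, control replicate 5 stands apart at 18.5% on chromosome 19, and the 2 groups overlap along all 4 profiles.

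The remaining 3 amplicons, 65 CpGs in all, were near 0%, and a small difference there is a large one in odds. The LPS mean was the higher at 48 of these 65 CpGs, against 44 of the 72 CpGs of the other amplicons. The 11 CpGs with the smallest edgeR p included 9 of the 65. The residue of unconverted cytosine was not measured apart from methylation, and its part in these values was not tested.

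The second amplicon on chromosome 5 (67992821 to 67993138, 318 bp) held 19 CpGs, all at group means under 1%. Its amplicon mean was the only 1 of 8 (12.5%) without overlap between groups. The controls read 0.482%, 0.445%, 0.540%, 0.545% and 0.553%, and the LPS samples 0.624%, 0.635%, 0.565%, 0.730% and 0.656%. The highest control and the lowest LPS sample were close, at 0.553% and 0.565%. Group means of 0.513% ± 0.0471 and 0.642% ± 0.0597 (SD, n = 5 each) differed by 0.129 percentage points (interval 0.0516 to 0.211), with the smallest exact permutation p the design allows, 0.00794. The adjusted p of 0.0635 did not pass the threshold of 0.05.

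The difference was spread over the second chromosome 5 amplicon, with the LPS mean the higher at 18 of 19 CpGs. It was largest at position 67993018, where controls read 0.154%, 0.510%, 0.453%, 0.398% and 0.450% and LPS samples 1.21%, 0.765%, 0.799%, 1.13% and 0.957%. All LPS samples lay above all controls there. The difference of 0.579 percentage points (interval 0.315 to 0.838) was a log2 odds difference of 1.34, which did not pass (edgeR adjusted p = 0.0638). The adjusted p was 0.0196 without control replicate 1 and up to 0.214 without another sample. Positions 67992914 and 67993038 came next, with differences of 0.278 and 0.223 percentage points.

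The lowest CpG of this amplicon was position 67992829, at 0.248% and 0.302% on fewer reads than its neighbours, 276 to 7469 per sample. Position 67992853 had the highest mean over all 10 samples, at 0.776% and 0.885%. The largest within-group SD was 0.411, in LPS samples at position 67993014, where controls had 0.244. Single values above 1% numbered 1 of 95 in controls and 10 of 95 in LPS samples. Median reads per CpG were 4784 to 19649 in controls and 1683 to 7638 in LPS samples, and the part of this depth in the counts was not tested.

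The amplicon on chromosome 3 (54607068 to 54607497, 430 bp) held 27 CpGs mostly at well under 1%. From this level single samples stood out at single CpGs, and control replicate 2 at several. Values above 1% numbered 10 of 135 in controls and 17 of 135 in LPS samples, and values above 2% numbered 5 and 6. The 6 include 3.45% in LPS replicate 5 at position 54607497, on 29 reads. Median reads per CpG were 8044 to 25514 in controls and 2467 to 8363 in LPS samples. The part of depth in these counts was not tested. At position 54607226, the widest in spread, control replicate 5 read 5.42% (1383 of 25521 reads) and LPS replicate 5 read 6.23% (231 of 3708 reads), while the 8 other samples read 0.104% to 0.527%. These 2 samples share a number in the labels and stood out in the same direction.

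At position 54607259 the controls lay very close together, at 0.149%, 0.147%, 0.148%, 0.181% and 0.149%. Their SD of 0.0146 percentage points was below the 0.0354 that counting reads alone would give. The LPS samples read 1.32%, 0.527%, 0.172%, 0.502% and 0.971%, 4 of them above every control. The difference of 0.543 percentage points (interval 0.172 to 0.995) was a log2 odds difference of 2.0 (edgeR adjusted p = 0.0638). It passed without LPS replicate 3 (adjusted p = 0.00183), and the adjusted p reached 0.203 without LPS replicate 1.

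Differences in SD went both ways among the other positions of chromosome 3. The LPS SD was the larger at position 54607238, with 1.11 against 0.0892 in controls, and at position 54607290, with 0.670 against 0.0861. Single samples stood out there, LPS replicate 3 at 2.61% at the first and LPS replicate 1 at 1.69% at the second. The control SD was the larger at position 54607219, with 1.25 against 0.194 in LPS samples, at position 54607221, with 0.861 against 0.0782, and at position 54607370, with 0.981 against 0.0926. The same sample, control replicate 2, stood out at all of these, at 3.04%, 2.13% and 2.35%. The other controls read 0.0671% to 0.497% there. Control replicate 2 was also the highest control at position 54607388, at 4.70%. The next smallest edgeR p values of the amplicon, neither of which passed, were at 2 positions where the LPS mean and SD were the larger. Position 54607246 read 0.274%, 0.224%, 0.289%, 0.226% and 0.157% in controls and 1.76%, 0.446%, 1.51%, 1.12% and 0.108% in LPS samples (edgeR adjusted p = 0.349). Position 54607470 read 0.211%, 0.153%, 0.349%, 0.317% and 0.141% in controls and 1.89%, 2.15%, 0.237%, 1.18% and 0.162% in LPS samples (edgeR adjusted p = 0.516). Position 54607309 went the other way, at 0.369% ± 0.152 in controls and 0.188% ± 0.0564 in LPS samples (SD, n = 5 each). The positions of this paragraph were chosen after their values were seen.

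The lowest CpG of chromosome 3 was position 54607244, at 0.182% and 0.168%. The last one, position 54607497, had only 14 to 191 reads per sample. LPS replicate 5 read 3.45% there on 29 reads, and all other samples read 0%. The amplicon mean by sample was 0.339%, 0.639%, 0.351%, 0.282% and 0.457% in controls and 0.499%, 0.526%, 0.441%, 0.455% and 0.689% in LPS samples. Control replicate 2 lay among the highest LPS samples, and the difference of 0.108 percentage points (interval -0.0783 to 0.283) did not pass (exact permutation p = 0.214, adjusted p = 0.524). Position 54607497 weighs as much in these means as the deeply read CpGs. Over the 26 other CpGs the difference was 0.0858, and the LPS SD was 0.0517 instead of 0.0995.

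The amplicon on chromosome 23 (24973689 to 24974060, 372 bp) held 19 CpGs between 0.348% and 0.884% by group mean, and was the deepest read of the 3. The smallest p was at position 24973782, where controls read 0.501%, 0.443%, 0.395%, 0.451% and 0.864% and LPS samples 0.798%, 0.719%, 1.02%, 0.873% and 1.01%. Control replicate 5 lay among the LPS samples and the 4 other controls below them. The difference of 0.353 percentage points (interval 0.105 to 0.572) was a log2 odds difference of 0.80 (edgeR adjusted p = 0.162). It passed without control replicate 5 (adjusted p = 0.00705), and the adjusted p reached 0.407 without LPS replicate 3.

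The lowest CpG of chromosome 23 was position 24973957, at 0.348% and 0.485%. Position 24974054, near the end, had both the highest mean over all 10 samples and the widest spread, at 0.863% ± 0.170 in controls and 0.785% ± 0.462 in LPS samples (SD, n = 5 each). Control replicates 2 and 3 and LPS replicate 1 had 8755, 8087 and 3282 reads there, against 17656, 23072 and 9534 at position 24973957. Control replicate 3 was the lowest control, at 0.569%, and LPS replicate 1 the highest LPS sample, at 1.52%. The part of the lost reads in this spread was not tested. By sample the amplicon mean was 0.560%, 0.549%, 0.591%, 0.481% and 0.613% in controls and 0.603%, 0.623%, 0.603%, 0.702% and 0.549% in LPS samples. The groups overlapped and differed by 0.0573 percentage points (interval -0.0106 to 0.141, exact permutation p = 0.119, adjusted p = 0.476).

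**Figure D4:**
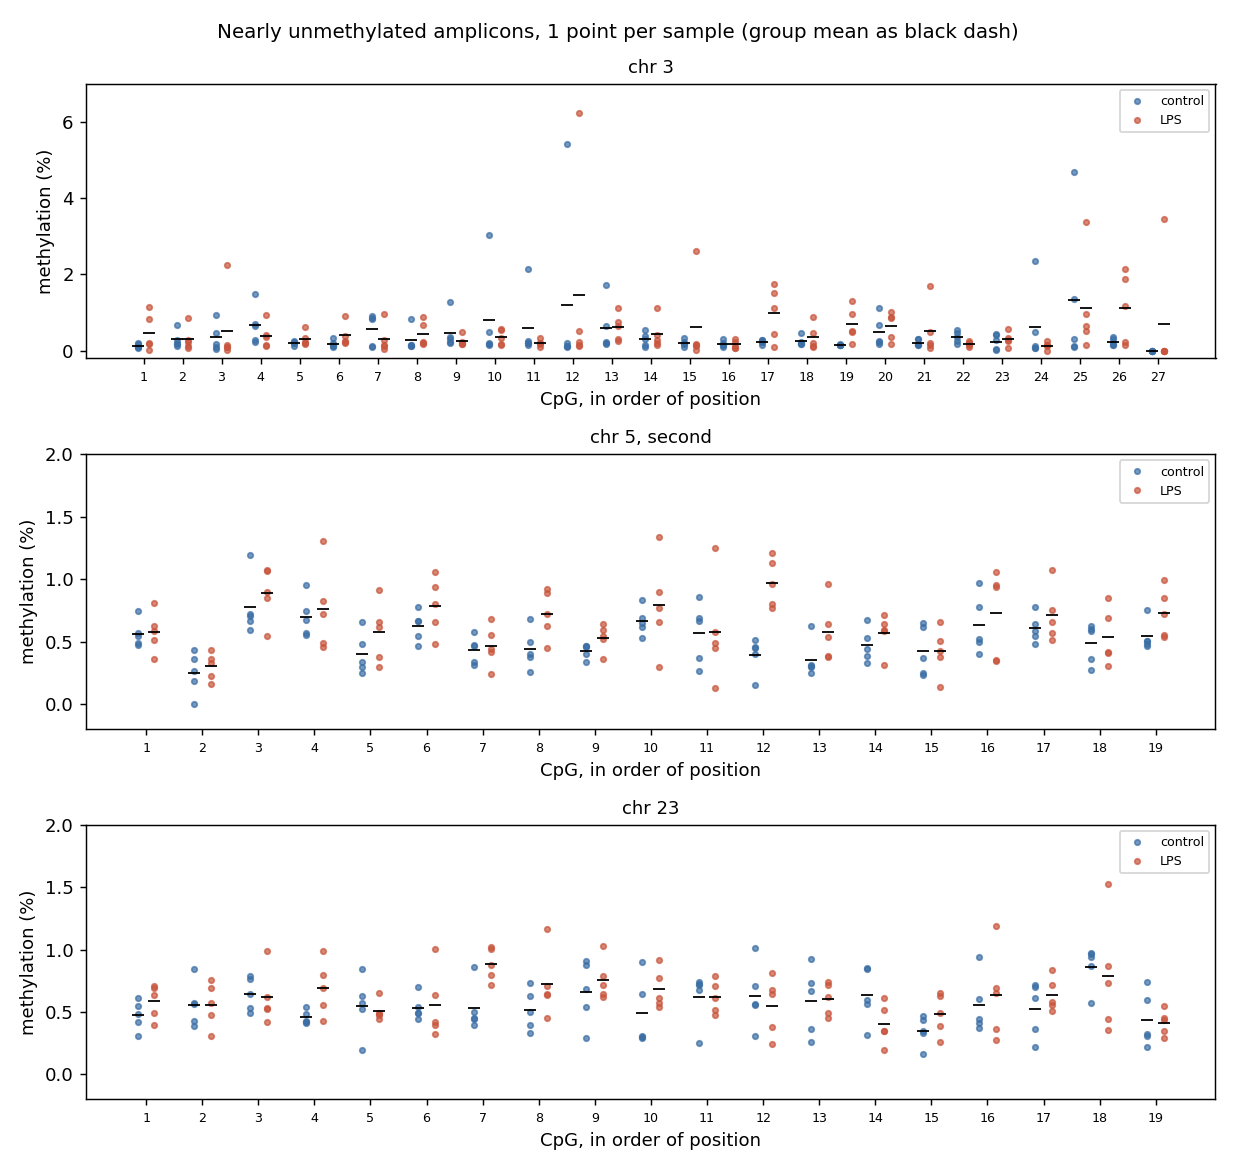
Methylation (percent, y axis) of every CpG of the amplicons on chromosome 3, the second on chromosome 5 and on chromosome 23, in order along the amplicon (x axis); points are 6H samples, dashes the mean of 5. Most values lie under 1%, and position 54607226 of chromosome 3 has the 2 highest, 5.42% in a control and 6.23% in an LPS sample.

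The spread within groups was set beside the spread that counting reads alone would give. The SD between samples was over 2 times that counting SD at 91 of the 137 CpGs in controls and at 73 in LPS samples, whose libraries were shallower in the median. On chromosome 10 this held at 9 and 8 of the 10 CpGs, and on chromosome 24 at 13 and 11 of the 13. The share was lowest in the sparsely read first amplicon of chromosome 5, at 3 of 24 CpGs in controls and 1 of 24 in LPS samples.

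The SD was the larger in LPS samples at 63 CpGs, in controls at 71, and 0 in both at 3. It was the larger in LPS samples at 16 of 19 CpGs of the second chromosome 5 amplicon, where the median counting SD was also larger in LPS samples (0.148 against 0.0765 percentage points), and at 16 of 27 on chromosome 3 (0.101 against 0.0467). It was the larger in controls at 18 of 24 CpGs of the first chromosome 5 amplicon, 5 of 7 on chromosome 19 and all 9 with a spread on chromosome 10. The median counting SDs of these amplicons, in that order, were 3.20, 1.06 and 0.488 in controls and 3.11, 0.388 and 0.713 in LPS samples. The counts of CpGs were near even on chromosome 18, with 8 larger in LPS samples and 8 in controls, chromosome 24, with 7 and 6, and chromosome 23, with 8 and 11. CpGs of an amplicon share their reads and are not independent. Without control replicate 5, the SD of the chromosome 19 amplicon mean was 0.737 in controls, against 0.791 in LPS samples. Without control replicate 1, that of chromosome 10 was 2.22 in controls, against 2.49 in LPS samples. For the first chromosome 5 amplicon the control SD was 3.61 or more whichever control was left out, against 2.78 in LPS samples. Over amplicon means, a permutation test of the absolute deviations from the group median called 0 of 8 (0.0%), with 0 at an unadjusted p under 0.05 and a lowest adjusted p of 0.898. In each group the sample at the median has a deviation of 0 by construction. This test therefore cannot reach the 0.00794 that the exact test of means allows, and could not call an amplicon alone. Its 0 of 8 does not show that the groups spread alike.

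**Figure D5:**
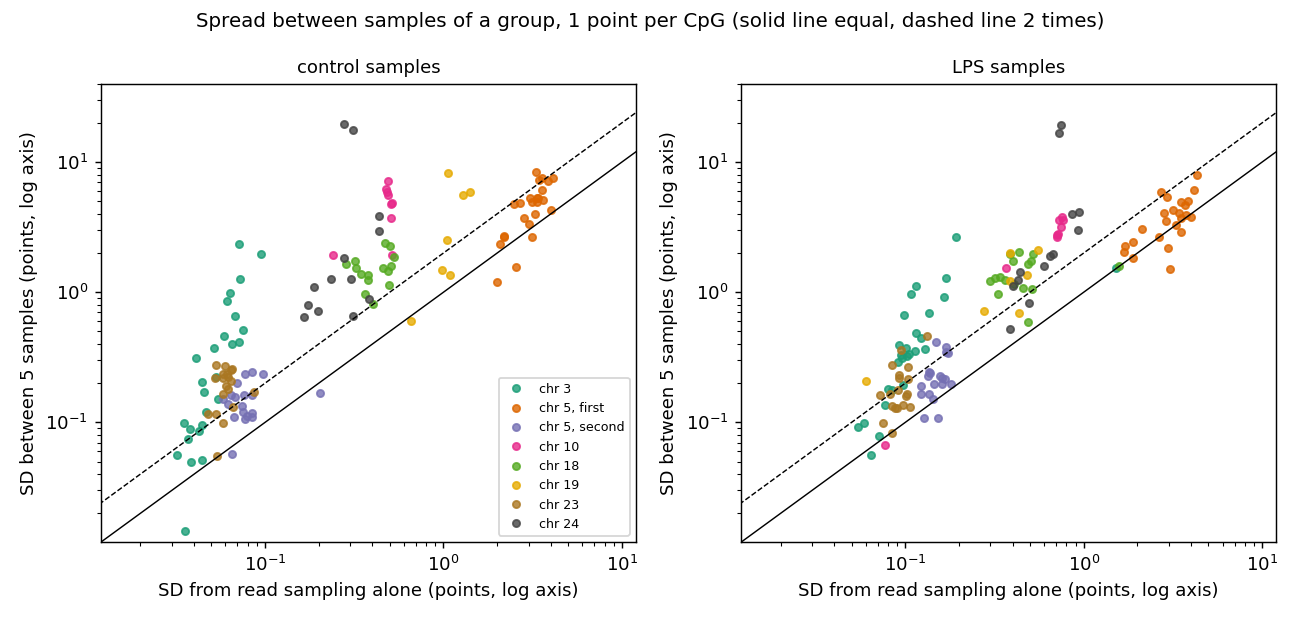
SD of methylation between the 5 samples of a group (percentage points, y axis, log scale) against the SD that counting reads alone gives (percentage points, x axis, log scale), 1 point per CpG, controls and LPS samples in separate panels, with CpGs of SD 0 not drawn. The solid line marks equal values and the dashed line 2 times the counting SD, which 91 CpGs exceed in controls and 73 in LPS samples.

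The 3H set, processed the same way, shows how far these differences depend on the set. At position 44956872 of chromosome 10 the 3H controls read 0.271%, 48.8%, 45.0%, 44.2% and 47.6% and the 3H LPS samples 0.131%, 0.193%, 0.376%, 45.1% and 0.176%, so that each 3H group had 1 sample at the level of the other. Within 3H the log2 odds difference at this CpG was -6.78 (edgeR adjusted p = 0.0609), with SDs of 20.7 percentage points in controls and 20.1 in LPS samples. A test of whether LPS effects differed between sets did not call this CpG (edgeR adjusted p = 0.836). At such a spread, the lack of a call does not show that the sets agree. The test between sets called 1 of 135 CpGs (0.741%), position 54607259 of chromosome 3 (log2 odds 3.88, edgeR adjusted p = 0.0303). There 3H controls were at 0.925% ± 0.889 and 3H LPS samples at 0.198% ± 0.140 (SD, n = 5 each). Within 3H that difference did not pass (edgeR adjusted p = 0.167). Leaving out each of the 20 samples in turn ended that call for 11 of them, 3H LPS replicates 1, 2, 4 and 5, 6H control replicates 1 to 4 and 6H LPS replicates 1, 2 and 4, where the lowest adjusted p of any CpG was from 0.0502 to 0.0871.

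Of the amplicon means, 2 of 8 (25.0%) differed in LPS effect between the sets by the permutation test. The second on chromosome 5 had LPS minus control at 0.129 percentage points in 6H and -0.162 in 3H, 0.291 apart (permutation adjusted p = 0.000252). Its controls were at 0.513% in 6H and 0.712% in 3H, and its LPS samples at 0.642% and 0.550%. Chromosome 23 had 0.0573 and -0.192, 0.249 apart (permutation adjusted p = 0.000378). Controls were at 0.559% in 6H and 0.716% in 3H there, and LPS samples at 0.616% and 0.524%. Both groups thus differed between the sets in both amplicons, and the cause was not tested.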

How the data were processed

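Per the labels' protocols, gonad DNA was extracted with phenol and chloroform, bisulfite converted with a kit, amplified and indexed for Illumina sequencing. Trim Galore 0.4.5, FastQC 0.11.6, Bowtie2, Bismark and build GRCz11 are named in the submitters' processing notes. What settings they had is not given in the sources used here. Each deposited table holds 1 sample, with 2 counts per CpG (reads methylated, reads not) and the percent methylated, per the file headers. The deposited percent values equalled those recomputed from the counts to within 5.68e-14. No 2 samples held identical values. Where a sample had fewer than 10 reads, its value was dropped at that CpG. The 247 positions that were not kept held 3273 control and 2019 LPS reads.

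Kept CpGs at most 500 bp apart formed an amplicon. Per CpG, edgeR 4.0.16 in R 4.3.3 was used (quasi-likelihood, 1 intercept per sample, the 10 samples compared). Amplicon means, unweighted over the CpGs covered in all 10 samples, were compared by two-sided exact permutation over 252 arrangements. Exact permutation intervals have a level of 95%. The sets' LPS effects were compared by an edgeR interaction term over all 20 samples and, for amplicons, by shuffling the set labels of centred values inside each treatment, which is approximate, as is the spread test. P-values were adjusted by Benjamini-Hochberg with a threshold of 0.05. Alternatives were coverage minimums of 5, 30 and 100 reads, limma 3.58.1 on log2 ratios with 0.5 added, an exact test per CpG, a fit of all 20 samples, pooled reads, medians, CpGs at separate levels left out (2 or more samples on either side of a gap of 10 percentage points or more), a replicate block and omission of each sample. Scripts were tested on simulated data. Other computing used scipy 1.17.1, pandas 2.3.3, numpy 2.4.6 and Python 3.11.15, with plots by matplotlib 3.10.9.

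Named with full values were CpGs called, CpGs without overlap, the smallest p of each amplicon, and its lowest, highest and most spread CpGs. Lists of genes of sex differentiation and inflammation could not be matched to amplicons without an annotation of the build. The members, lists and tests were chosen with earlier results of these data known.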

Additional observations from a re-analysis of the deposited data

Results flagged for a closer look

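A single sample lay far from the 4 others of its group in 8 of 46 groups of 5 tested. For groups not chosen by their values, chance gives about 1 in 20. The CpGs tested were partly chosen for a wide spread or a small p, and an amplicon and its CpGs can single out the same sample, so this rate does not apply to the 8. On chromosome 24, control replicate 1 stood apart at position 21640622, with 48.3% against 4.22% to 5.80%, and in the amplicon mean, with 20.1% against 14.4% to 14.7%. At position 27019282 of chromosome 19, control replicate 5 read 18.5% against 0.113% to 0.388%, on the fewest reads of that amplicon. At position 54607226 of chromosome 3, control replicate 5 read 5.42% against 0.104% to 0.201%, and LPS replicate 5 read 6.23% against 0.129% to 0.527%. At position 54607259, control replicate 4 was apart by a small amount, at 0.181% against 0.147% to 0.149%. On chromosome 23, control replicate 5 read 0.864% at position 24973782 against 0.395% to 0.501%, and control replicate 3 read 0.569% at position 24974054 against 0.868% to 0.975%.

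A difference in LPS effect between the 6H and 3H sets passed its test in 3 cases. These were position 54607259 of chromosome 3, with an edgeR log2 odds difference of 3.88 between the effects, and the amplicon means of the second chromosome 5 amplicon, 0.291 percentage points, and of chromosome 23, 0.249 percentage points. Their causes were not tested.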

How the results depend on the processing

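Position 44956872 of chromosome 10 was called under every alternative that kept it except the exact test per CpG, which called 0 CpGs (adjusted p = 0.544 at -45.1 percentage points). That test could make a call only with 22 CpGs at its smallest p. Without CpGs at separate levels, which leaves this CpG out, 0 were called. Leaving out each sample gave 1 to 2 CpGs called; the second was position 67993018 of chromosome 5 without control replicate 1, 24973782 of chromosome 23 without control replicate 5, and on chromosome 3 54607259 without LPS replicate 3 and 54607246 without LPS replicate 5. The count of amplicons called was 0 under all alternatives run. With groups of 5 and 5, 1 amplicon alone at the smallest p has an adjusted p of 0.0635 and cannot be called. When each sample was left out, the lowest adjusted p by exact permutation was also 0.0635. The unchanged 0 therefore does not show that the result is stable. The chromosome 10 difference turned to 2.28 without CpGs at separate levels and to 2.86 with the median CpG. The chromosome 18 difference turned to -2.63 with the sparsely read CpGs and to -0.00257 on the log2 ratio scale, on which chromosome 19 turned to -0.0748. The -2.63 sets unlike CpGs against each other. Control replicate 1 had under 10 reads at the sparsely read CpGs, which were at or near 0%. Its mean left them out, while the means of the other samples held them. Leaving out each sample gave -1.15 to 0.893 for the first chromosome 5 amplicon, -0.304 to 0.549 for chromosome 18 and -0.115 to 0.674 for chromosome 19. Apart from the CpGs averaged on chromosome 18, causes were not tested. In the test between the sets, leaving out each sample gave 0 to 3 CpGs and 2 to 3 amplicons called, the third amplicon being chromosome 3 without 6H control replicate 2 (0.281 percentage points, adjusted p = 0.0331).

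Samples that share a replicate number had deviations from their group means that correlated at r from -0.269 to 0.157 over 133 CpGs, over 0.1 for numbers 4 and 5 only, and 1 of 5 pairs, number 5, was best matched to its own number. The numbers, whose meaning the labels do not give, were not taken as pairs. This check cannot exclude pairs, since many of the CpGs are near 0%, where counting error is large beside the level. On chromosome 10 replicate 1 was the highest of both groups at most CpGs, and on chromosome 18 replicate 2 was the lowest of both. The most frequent lowest sample on chromosome 10 and highest on chromosome 18 had different numbers in the groups. At position 54607226 of chromosome 3, replicate 5 stood apart in both groups, at 5.42% and 6.23%. At position 21640622 of chromosome 24, replicate 1 read 48.3% in controls and 45.9% in LPS samples, but replicate 4 read 5.80% and 47.3%. At position 27019282 of chromosome 19, replicate 5 stood apart in controls only. With a replicate block, 1 CpG was called. For amplicons the block test flips the signs of 5 differences and allows no p below 0.0625. It could therefore call no amplicon, and its count of 0 carries no information.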
